A study of Mus musculus with 12 samples.

Results

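The expression of 34 genes of the G2 phase and of mitosis was followed in normal mouse bone marrow and in 3 mouse leukemias. The genes were chosen by name, as members of the machinery that enters, carries out and leaves mitosis. All 34 were among the 35976 genes of the count table, and all passed the filter on low counts, which left 15334 genes for testing. Polyadenylated RNA was sequenced from CD45.2+ bone marrow cells of C57BL/6 mice, sorted by FACS, with no growth or treatment step. The 12 libraries form 4 groups of 3. All carry the genotype CD45.2(+), alone in the WT group, with BRD9-NUTM1 in the BN1 group, with MLL-AF9 in the MA9 group and with MLL-ENL in the ME group. BRD9-NUTM1 joins a subunit of a chromatin remodelling complex to a protein of the male germ line. In the other fusions, part of a histone methyltransferase is joined to the end of AF9 or of ENL. The sources used here do not give the age or sex of the mice or how a fusion was introduced. No label ties a library to an animal, so each p-value describes the scatter of these libraries, which may be technical.

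Mitosis begins when Cdk1 bound to cyclin B becomes active, and it ends when the anaphase-promoting complex destroys cyclin B and the inhibitor of separase. In between, a checkpoint of kinases at the kinetochores holds that complex back until every chromosome is attached to the spindle. Most genes of this machinery are transcribed in G2 from promoters that carry CCAAT boxes, bound by NF-Y, and a cell cycle homology region (CHR), bound by MuvB complexes: with the retinoblastoma relatives these keep the genes low in resting cells, and with B-Myb and FoxM1 they turn them on. In bone marrow the machinery is abundant in the dividing precursors of red cells, B cells and granulocytes and scarce in finished cells.

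The promoters of 28 of the 34 genes were found in the RefSeq table of GRCm38.p6, which gives 250 bases before and 50 after the start of transcription. Ccna2, Aurkb, Kif20a, Tpx2, Cdc25c and Dlgap5 had no entry. Exact letters were searched on both strands. A CHR, taken as the letters TTTGAA, the variant TTCGAA or else the variant TTTAAA, was in 26 of the 28 promoters (92.9%), against 29.0% of all 27025 promoters of the table, and the form TTTGAA alone was in 22 (78.6%) against 18.1%. A CCAAT box was in 22 (78.6%) against 37.9%, and 15 promoters (53.6%) held at least 2 of them against 12.2% of all. Both kinds of element stood together in 22 (78.6%) against 11.5%. Letters of an E2F site were in 5 (17.9%) against 8.2%. The form TTCGCGC was in 2 of the 28, the form TTGGCGC in 4 and the form TTCCCGC in 0. In Ccnb1 and Ect2 the TTGGCGC match lies on the other strand and shares its TTGG with a CCAAT box. Kif2c, Birc5, Ndc80 and Anln had a CHR without a CCAAT box, and Nusap1 and Nuf2 had neither. A match is a stretch of letters and shows no binding.

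Below are the 200 bases before the start of 7 members, read 5′ to 3′ along the strand of the gene. Capitals mark CCAAT boxes (ATTGG on the other strand) and CHR letters (TTCAAA is TTTGAA on the other strand), and E2F letters are left in lower case. Cdk1 and Ccnb2 are the kinase and a cyclin that trigger mitosis, Plk1 differed most between BN1 and MA9, Ube2c fell most in BN1 against WT, Cdc20 is the member not called lower in BN1 than in the MLL leukemias, Bub1b rose in MA9, and Nusap1 fell most in MA9 with none of the letters. They lie at chr10:69352913-69353112 (minus strand), chr9:70421555-70421754 (minus), chr7:122159235-122159434 (plus), chr2:164769729-164769928 (plus), chr4:118437344-118437543 (minus), chr2:118598011-118598210 (plus) and chr2:119618098-119618297 (plus) of GRCm38.p6.
Cdk1: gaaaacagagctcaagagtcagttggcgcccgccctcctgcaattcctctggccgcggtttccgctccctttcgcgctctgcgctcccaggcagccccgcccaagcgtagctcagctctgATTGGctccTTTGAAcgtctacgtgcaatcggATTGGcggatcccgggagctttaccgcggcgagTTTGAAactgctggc
Ccnb2: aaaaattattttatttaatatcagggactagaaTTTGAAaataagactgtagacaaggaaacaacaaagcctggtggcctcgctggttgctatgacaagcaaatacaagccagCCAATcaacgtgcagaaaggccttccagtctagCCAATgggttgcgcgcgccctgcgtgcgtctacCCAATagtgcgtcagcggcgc
Plk1: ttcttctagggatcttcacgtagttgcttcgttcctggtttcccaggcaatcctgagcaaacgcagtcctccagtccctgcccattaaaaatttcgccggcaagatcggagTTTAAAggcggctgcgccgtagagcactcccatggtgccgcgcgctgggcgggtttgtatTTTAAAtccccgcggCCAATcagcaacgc
Ube2c: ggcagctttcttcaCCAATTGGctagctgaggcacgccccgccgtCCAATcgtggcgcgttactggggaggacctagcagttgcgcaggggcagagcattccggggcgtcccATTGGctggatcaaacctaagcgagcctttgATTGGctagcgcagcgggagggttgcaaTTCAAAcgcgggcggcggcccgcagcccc
Cdc20: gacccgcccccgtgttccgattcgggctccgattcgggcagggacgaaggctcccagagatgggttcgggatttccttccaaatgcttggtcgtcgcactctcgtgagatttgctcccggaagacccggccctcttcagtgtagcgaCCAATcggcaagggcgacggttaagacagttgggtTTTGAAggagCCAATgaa
Bub1b: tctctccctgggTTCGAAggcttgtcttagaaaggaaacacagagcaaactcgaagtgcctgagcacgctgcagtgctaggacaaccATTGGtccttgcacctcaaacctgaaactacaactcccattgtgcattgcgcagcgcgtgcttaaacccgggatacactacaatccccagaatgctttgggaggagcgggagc
Nusap1: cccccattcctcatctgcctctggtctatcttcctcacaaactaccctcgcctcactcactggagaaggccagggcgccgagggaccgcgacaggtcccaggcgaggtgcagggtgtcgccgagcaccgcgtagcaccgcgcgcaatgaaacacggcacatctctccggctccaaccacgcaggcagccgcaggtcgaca

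In Cdk1 the CHR letters begin 71 and 15 bases before the start and the CCAAT boxes 80 and 48 bases before it, with another CCAAT box beyond the stretch shown. Ccnb2 holds CCAAT boxes 87, 54 and 21 bases before the start, and a further CHR begins just after it. Ube2c has a single CHR, 29 bases before the start, and 6 CCAAT boxes in the whole window, of which 2 overlap as CCAATTGG. Cdc20 carries its CHR 18 bases and its CCAAT boxes 53 and 8 bases before the start. In Bub1b the only CCAAT box lies 113 bases before the start and a TTTGAA lies after it, outside the stretch shown.

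Library totals ran from 18292636 to 25732049 counts, and the smallest count of any of the 34 genes in any library was 153. Levels are given as CPM, counts scaled to a common library size with TMM factors. Ptprc, which encodes CD45, was present in every library, from 317 to 1090 CPM. The counts do not tell its CD45.2 allele from others. WT libraries also carried markers of cell types that were near absent from the leukemias. The 12 erythroid markers summed to 17900 to 23100 CPM in WT and to at most 155 CPM in any leukemia library, with Car1 at 0 in all leukemia groups, Rhag at 0 in MA9 and ME, and Gata1 and Slc4a1 at 0 in ME. The 12 B cell progenitor markers summed to 1210 to 1370 CPM in WT and to at most 21.3 CPM in the leukemias, where Rag1 and Dntt were at 0 in MA9 and ME and Rag2 in BN1. The 12 mature neutrophil markers summed to between 62600 and 65800 CPM for WT, 5420 and 5630 for BN1, 762 and 796 for MA9, and 756 and 825 for ME, with none at 0. The 7 promyelocyte markers found in the table summed to between 2250 and 2350 CPM for WT, 23000 and 23600 for BN1, 12900 and 13400 for MA9, and 18700 and 19600 for ME. The 10 T and NK cell markers summed to 280 to 296 CPM in WT and to at most 147 in the leukemias. Nkg7 alone held 140 to 146 CPM of that in BN1, where it rose (1.85 on the log2 scale) and the other 9 fell, to at most 0.613 CPM in sum. The 6 megakaryocyte markers summed to 53 to 66.6 CPM in WT and to at most 3.19 in the leukemias. The 10 monocyte and macrophage markers summed to 4680 to 4880 CPM in BN1 and to between 1340 and 1940 elsewhere. Of these 10, 5 rose and 5 fell in BN1 against WT (38.4% and 40.8% of all genes). Their log2 fold changes ran from -5.4 (Cx3cr1) to 2.14 (F13a1), with a median of -0.24. The 7 markers of stroma and endothelium summed to between 46.3 and 150 CPM in all libraries. The part of these cell types in the differences from WT was not tested, and in bulk RNA fewer dividing cells and less RNA per dividing cell cannot be told apart. MA9 libraries also differed from the rest in Xist (324 to 373 CPM against 755 to 981) and in 4 Y-linked genes (149 to 165 CPM in sum against at most 0.629). ME replicate 3 stood apart, with LOC101056014 at 14800 CPM against 455 and 446 in the other ME libraries. Values for ME include it unless stated otherwise.

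Together the 34 genes took 5455, 5600 and 5320 CPM in the WT libraries, 2375, 2375 and 2339 in BN1, 3800, 3823 and 3743 in MA9, and 3521, 3625 and 3930 in ME. No leukemia library reached the lowest WT library, and no BN1 library reached the lowest library of either MLL leukemia. Gene by gene, the WT mean was the highest of the 4 groups for 30 members and the BN1 mean the lowest for 33. The order WT, MA9, ME, BN1 held for 20 genes and the order WT, ME, MA9, BN1 for 9.

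**Figure D1:**
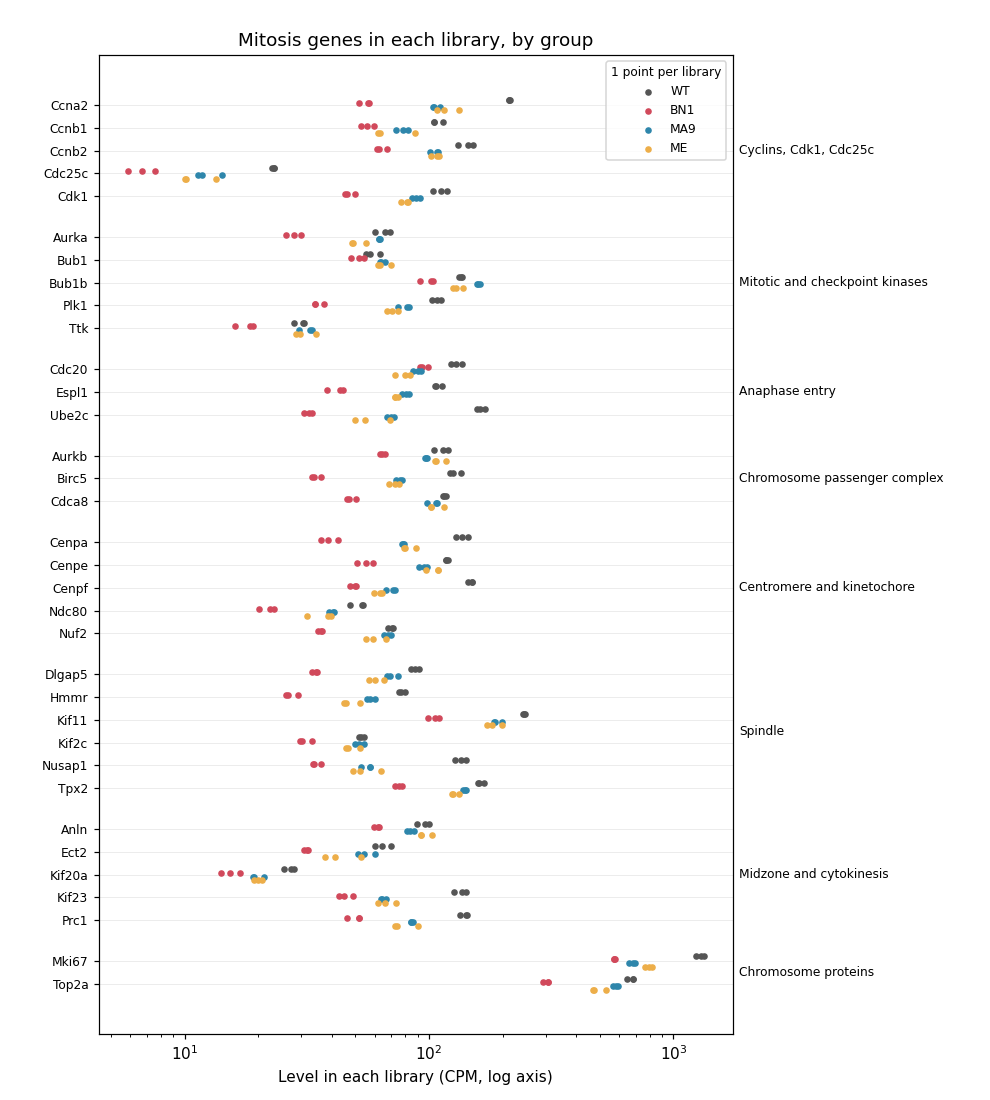
Level of each of the 34 genes in CPM on a log axis, with 1 point per library in 4 colours for WT, BN1, MA9 and ME, and genes grouped by role. The BN1 points lie to the left of the WT points for every gene, and Cdc20 is the gene whose BN1 points do not lie to the left of both MLL leukemias. CPM is not corrected for gene length, so rows compare groups and not genes.

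Against WT, all 34 genes fell in BN1 (edgeR quasi-likelihood test, Benjamini-Hochberg adjusted p under 0.05 over all 15334 genes), where 40.8% of all genes tested were lower and 38.4% higher (79.2% in either direction). Their median log2 fold change was -1.22, or 2.33-fold lower, beside -0.01 over all genes tested. The BN1 and WT libraries did not overlap for any of the 34, as for 80.3% of all genes, and 24 members were at least 2-fold lower, as were 24.1% of all genes. The call of Bub1, the smallest change, was lost without WT replicate 1 (adjusted p = 0.08) or without BN1 replicate 3 (0.069), which left 33 lower.

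In MA9, 28 of the 34 fell and 2 rose against WT, where 40.8% of all genes were lower and 39.3% higher (80.1% in either direction), and the groups did not overlap for 30 members (80.9% of all genes). The median log2 fold change was -0.40. In ME, 28 fell and 1 rose, where 40.2% of all genes were lower and 39.0% higher (79.2% in either direction), and 27 members did not overlap (79.8% of all genes). The ME median was -0.51, and without ME replicate 3 it was -0.55, with 29 lower and 0 higher. These comparisons share the WT libraries. The members lower in all 3 leukemias numbered 26, where 29.2% of all genes were lower in all 3, and Bub1 and Bub1b were those higher in at least 1 of them.

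**Figure D2:**
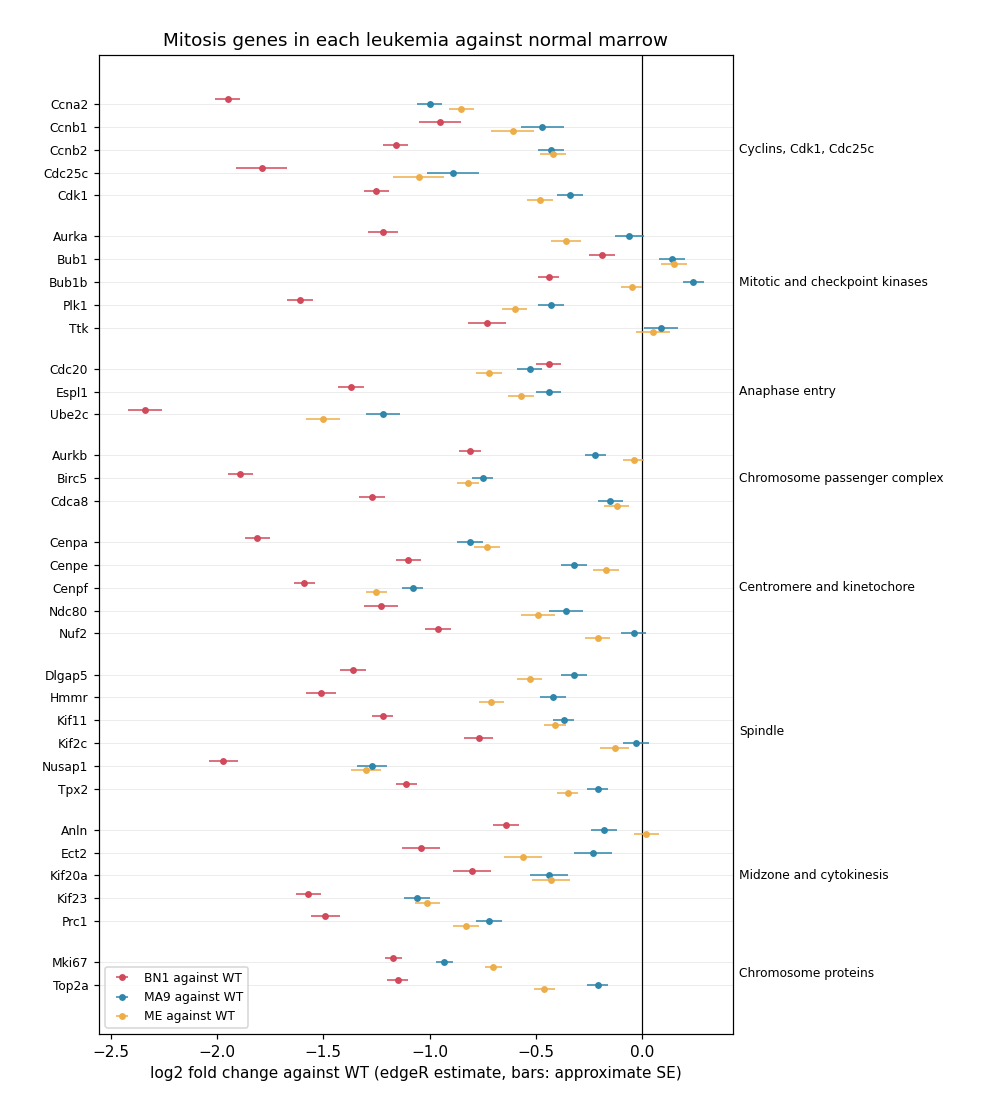
Log2 fold change of each gene in BN1, MA9 and ME against WT, with bars for the approximate SE and genes grouped by role. BN1 points run from -2.34 (Ube2c) to -0.19 (Bub1), and the MA9 and ME points lie closer to 0 except for Cdc20. Bub1, Bub1b, Ttk and Anln have an MA9 or ME point above 0.

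The cyclins, Cdk1 and its activating phosphatase fell in all 3 leukemias, with 5 of 5 called lower in each. Beside the counts by role here and below, 40.8% of all genes were lower and 38.4% higher than WT in BN1. The shares were 40.8% and 39.3% in MA9, and 40.2% and 39.0% in ME. Ccna2, the cyclin A that partners Cdk kinases from S phase to early mitosis, stood at 213, 215 and 212 CPM in the WT libraries, 56.9, 56.4 and 51.9 in BN1, 105, 111 and 104 in MA9 and 108, 115 and 133 in ME. The WT libraries lie far above all others and the BN1 libraries far below. Its log2 fold change against WT was -1.95 ± 0.06 (SE) in BN1, or 3.88-fold lower, -1.0 ± 0.06 in MA9 and -0.85 ± 0.06 in ME. Cdk1, the kinase that drives mitotic entry, stood at 104, 119 and 112 CPM in the WT libraries, 49.7, 46.1 and 45.5 in BN1, 91.6, 84.8 and 88.8 in MA9 and 76.5, 81.5 and 82.3 in ME. It was 2.37-fold lower in BN1 than in WT (-1.25 ± 0.06, adjusted p = 2.6e-17) and fell by less in MA9 (-0.34 ± 0.06) and ME (-0.48 ± 0.06).

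Both B cyclins fell in every leukemia. Ccnb2 stood at 132, 151 and 144 CPM in the WT libraries, 62.6, 67.3 and 61 in BN1, 109, 101 and 108 in MA9 and 108, 102 and 109.9 in ME. MA9 and ME overlap there and BN1 is below both, with changes of -1.16 ± 0.06 in BN1, -0.43 ± 0.06 in MA9 and -0.42 ± 0.06 in ME. Ccnb1, the cyclin that takes Cdk1 into the nucleus, stood at 114, 105 and 105 CPM in the WT libraries, 55.7, 59.5 and 52.9 in BN1, 73.5, 81.9 and 78 in MA9 and 61.8, 63 and 87.2 in ME, with ME replicate 3 above the other ME libraries. Its change was -0.95 ± 0.10 in BN1, -0.47 ± 0.10 in MA9 and -0.61 ± 0.10 in ME. Without ME replicate 3 the last was -0.78 ± 0.06. Pseudogene copies such as Ccnb1-ps (99.2% identical over 1287 bases) could share reads with it, so its level is uncertain. Cdc25c, the phosphatase that removes inhibitory phosphates from Cdk1, stood at 23.2, 22.9 and 23.1 CPM in the WT libraries, 6.71, 7.56 and 5.86 in BN1, 11.4, 11.8 and 14.2 in MA9 and 10.1, 10.1 and 13.5 in ME. BN1 was 3.45-fold below WT (-1.79 ± 0.12).

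Plk1, Aurka, Bub1, Bub1b and Ttk were grouped as mitotic and checkpoint kinases, while the kinases Cdk1 and Aurkb are given with other roles. All 5 of this group fell in BN1. Within the group, Plk1 alone fell in MA9 and Bub1 and Bub1b rose, and in ME Plk1 and Aurka fell and Bub1 rose. Plk1, the polo kinase of centrosome maturation and mitotic entry, stood at 103, 112 and 108 CPM in the WT libraries, 34.2, 34 and 37.3 in BN1, 74.8, 81.4 and 83 in MA9 and 70.6, 67.5 and 75 in ME. No groups among WT, MA9 and BN1 overlap, and the change was -1.61 ± 0.06 in BN1, -0.43 ± 0.06 in MA9 and -0.60 ± 0.06 in ME. Aurka, the kinase of the spindle poles, stood at 60.01, 69.1 and 66.4 CPM in the WT libraries, 28, 29.9 and 26.1 in BN1, 62.6, 62.8 and 62.4 in MA9 and 48.8, 48.5 and 55.5 in ME. It fell in BN1 (-1.22 ± 0.07) and ME (-0.36 ± 0.07), while the MA9 libraries lay within the WT range (-0.06 ± 0.07, adjusted p = 0.43).

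Bub1, Bub1b and Ttk are kinases of the spindle checkpoint. Bub1b, which encodes BubR1 and blocks Cdc20, stood at 137, 135 and 133 CPM in the WT libraries, 104, 92.3 and 102 in BN1, 159, 162 and 157 in MA9 and 125, 129 and 138 in ME. It rose in MA9 (0.24 ± 0.05, adjusted p = 7.5e-05), where every library was above every WT library, and fell in BN1 (-0.44 ± 0.05), where every library was below. In ME it was -0.05 ± 0.05 (adjusted p = 0.39). Bub1, which recruits checkpoint proteins to kinetochores, stood at 62.9, 57.3 and 55.1 CPM in the WT libraries, 54, 51.6 and 48.1 in BN1, 63, 66.4 and 63.9 in MA9 and 61.9, 63 and 69.7 in ME. WT replicate 1 lies above the other WT libraries and within the ME range, just under the lowest MA9 library. The rises in MA9 (0.14 ± 0.06, adjusted p = 0.046) and ME (0.15 ± 0.06, adjusted p = 0.036) were small, and their adjusted p reached 0.26 and 0.23 over the 20 alternatives without a fold minimum. The rise in MA9 was lost in 9 of them and the rise in ME in 6. Without WT replicate 2 or 3 neither rise passed (adjusted p = 0.13 and 0.22 in MA9, 0.099 and 0.17 in ME). The one in MA9 was also lost without MA9 replicate 2 (0.13), MA9 replicate 3 (0.065) or ME replicate 2 (0.051), and the one in ME without ME replicate 3 (0.18). Ttk, the kinase that starts the checkpoint signal, stood at 30.9, 28.1 and 30.4 CPM in the WT libraries, 19.1, 18.6 and 16.1 in BN1, 29.3, 32.5 and 33.1 in MA9 and 28.7, 29.8 and 34.6 in ME. It fell in BN1 (-0.73 ± 0.09), and the MA9 (0.09 ± 0.08) and ME (0.05 ± 0.08) libraries overlapped WT.

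All 3 genes of anaphase entry fell in each leukemia. Ube2c, the ubiquitin-conjugating enzyme of the anaphase-promoting complex, stood at 157, 169.9 and 162 CPM in the WT libraries, 33.3, 30.9 and 32.2 in BN1, 67.5, 72 and 69.9 in MA9 and 54.6, 49.7 and 69.2 in ME. BN1 was 5.06-fold below WT (-2.34 ± 0.08, adjusted p = 3.9e-17), MA9 2.33-fold (-1.22 ± 0.08) and ME 2.82-fold (-1.50 ± 0.08). It fell most of all members in both BN1 and ME. Exons of Tnnc2 on the other strand cover 22.8% of its exon bases, but Tnnc2 itself did not pass 0.441 CPM in any library.

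Espl1, the separase that cuts cohesin, stood at 106, 113 and 107 CPM in the WT libraries, 38.4, 44.5 and 43.1 in BN1, 80.4, 77.5 and 82.9 in MA9 and 72.4, 75 and 72.5 in ME. It fell in all leukemias, by 1.37 on the log2 scale in BN1, 0.44 in MA9 and 0.57 in ME. Cdc20, which activates the anaphase-promoting complex and is the target of the checkpoint, stood at 123, 137 and 129 CPM in the WT libraries, 93.8, 92.3 and 99.5 in BN1, 93, 85.8 and 89.8 in MA9 and 72.9, 79.8 and 83.2 in ME. Its order was WT, BN1, MA9, ME, found for no other member. It fell against WT in BN1 (-0.44 ± 0.06), MA9 (-0.53 ± 0.06) and ME (-0.72 ± 0.06).

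The chromosome passenger complex, which corrects wrong attachments and later moves to the midzone, fell in BN1 in all 3 genes, in MA9 in 3 and in ME in 2. Birc5, or survivin, stood at 122, 136 and 125 CPM in the WT libraries, 34, 36.3 and 33.3 in BN1, 77.7, 73.5 and 76.3 in MA9 and 68.9, 72.5 and 75.1 in ME. All leukemia libraries were below all WT libraries, and BN1 was 3.7-fold lower (-1.89 ± 0.06), against -0.75 ± 0.05 in MA9 and -0.82 ± 0.05 in ME. Cdca8, or borealin, stood at 116, 114 and 117 CPM in the WT libraries, 46, 47 and 50.4 in BN1, 108, 97.7 and 106 in MA9 and 102, 102 and 115 in ME. It fell by 1.27 on the log2 scale in BN1 and by less in MA9 (-0.15 ± 0.06) and ME (-0.12 ± 0.06, adjusted p = 0.05). Both small falls were lost with upper-quartile scaling (adjusted p = 0.2 and 0.25), and the one in MA9 without MA9 replicate 2 (0.1). The call in ME was lost in 13 of 20 alternatives, among them the omission of any library but MA9 replicate 2 and ME replicate 3. Aurkb, the kinase of the complex, stood at 105, 119 and 114 CPM in the WT libraries, 66.2, 62.8 and 64.2 in BN1, 97.1, 98.3 and 95.9 in MA9 and 106, 106 and 117 in ME. It fell in BN1 (-0.81 ± 0.05) and MA9 (-0.22 ± 0.05), and ME overlapped WT (-0.04 ± 0.05, adjusted p = 0.52).

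At the centromere and kinetochore, all 5 genes fell in BN1, 4 in MA9 and 5 in ME. Cenpa, the histone variant that marks centromeres, stood at 129, 145 and 137 CPM in the WT libraries, 36, 38.6 and 42.3 in BN1, 77.3, 78.8 and 77.9 in MA9 and 79.99, 79.1 and 88.8 in ME. BN1 was 3.51-fold below WT (-1.81 ± 0.06). Cenpf, a large protein of the outer kinetochore, stood at 150.2, 149 and 144 CPM in the WT libraries, 50.1, 47.5 and 49.8 in BN1, 72.8, 66.5 and 71.2 in MA9 and 59.4, 62.8 and 64.4 in ME. Here the MLL leukemias also lay at least 2-fold below WT, with changes of -1.59 ± 0.05 in BN1, -1.08 ± 0.05 in MA9 and -1.25 ± 0.05 in ME.

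Cenpe, the kinesin that carries chromosomes to the spindle equator, stood at 120.1, 118 and 117 CPM in the WT libraries, 59, 50.9 and 55 in BN1, 95.6, 91.1 and 98.3 in MA9 and 97.5, 109 and 109 in ME. Its fall was -1.10 ± 0.06 in BN1 and -0.32 ± 0.06 in MA9, and the small fall in ME (-0.17 ± 0.06) was lost with upper-quartile scaling (adjusted p = 0.053) and without ME replicate 1 (adjusted p = 0.093). Nuf2 and Ndc80 are partners in the complex that grips microtubules, and both fell in BN1. Nuf2 stood at 70.3, 70.9 and 68.2 CPM in the WT libraries, 35.3, 36.1 and 36.3 in BN1, 68.2, 69.99 and 65.6 in MA9 and 58.9, 55.2 and 66.9 in ME. Its MA9 libraries overlapped WT (-0.04 ± 0.06, adjusted p = 0.56), and it fell in ME (-0.21 ± 0.06, adjusted p = 0.0027). Ndc80 stood at 53.4, 53.6 and 47.4 CPM in the WT libraries, 20.2, 23.3 and 22.3 in BN1, 40.9, 40.4 and 39 in MA9 and 31.7, 38.7 and 39.9 in ME, and it fell in MA9 (-0.36 ± 0.08) as in ME (-0.49 ± 0.08). In BN1 Nuf2 fell by 0.96 and Ndc80 by 1.23 on the log2 scale.

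Of the 6 spindle genes, 6 fell in BN1 and 5 each in MA9 and ME. Nusap1, which bundles spindle microtubules near chromosomes, stood at 136, 142 and 127 CPM in the WT libraries, 33.4, 36.1 and 33.9 in BN1, 57.4, 57.5 and 52.9 in MA9 and 52.4, 49 and 63.4 in ME. It fell 3.92-fold in BN1 (-1.97 ± 0.07), 2.41-fold in MA9 and 2.46-fold in ME, the largest fall of the 34 in MA9. Kif11, the motor that pushes the poles apart, stood at 244, 247 and 243 CPM in the WT libraries, 106, 110.3 and 99.2 in BN1, 184, 199 and 185 in MA9 and 173, 180.3 and 199 in ME. MA9 and ME overlap between WT and BN1, and the falls were -1.22 ± 0.05 in BN1, -0.37 ± 0.05 in MA9 and -0.41 ± 0.05 in ME.

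Hmmr, a spindle-associated receptor of hyaluronan, stood at 79.9, 77 and 75.6 CPM in the WT libraries, 29.1, 26.6 and 26.1 in BN1, 57.4, 60.02 and 55.8 in MA9 and 45.8, 44.7 and 52.3 in ME, with the 4 groups apart from each other and a fall of 1.51 on the log2 scale in BN1. Dlgap5, a stabiliser of spindle fibres, showed the same order at 87.5, 91.2 and 84.8 CPM in the WT libraries, 34.9, 34.4 and 33.4 in BN1, 74.9, 69.4 and 67.2 in MA9 and 56.9, 60.04 and 65.5 in ME. It fell by 1.36 on the log2 scale in BN1, 0.32 in MA9 and 0.53 in ME. Tpx2, the activator of Aurora A on the spindle, stood at 159.6, 168 and 158 CPM in the WT libraries, 72.6, 77.4 and 75.7 in BN1, 141, 140.4 and 138 in MA9 and 124, 126 and 132 in ME. Again the groups did not overlap, but the falls in MA9 (-0.21 ± 0.05) and ME (-0.35 ± 0.05) were small beside BN1 (-1.11 ± 0.05). Kif2c, which takes microtubule ends apart at centromeres, stood at 51.5, 52.7 and 54.2 CPM in the WT libraries, 33.4, 30.2 and 29.6 in BN1, 54, 51.9 and 49.7 in MA9 and 45.8, 46.8 and 52.3 in ME. Its MA9 and ME libraries overlapped WT (-0.03 ± 0.06, adjusted p = 0.7, and -0.13 ± 0.07, adjusted p = 0.068), and in ME it was lower with DESeq2 (adjusted p = 0.0098), with RLE size factors (0.0096), with the 1 CPM filter (0.041) and without ME replicate 3 (0.017).

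Genes of the central spindle and of cell cleavage showed the smallest median fall in BN1 apart from the group of mitotic and checkpoint kinases (-1.04 over 5 genes). Kif23, the motor of the centralspindlin complex, stood at 141, 136 and 127 CPM in the WT libraries, 43, 49 and 44.7 in BN1, 66.5, 64 and 63.9 in MA9 and 62.1, 66.2 and 73.2 in ME. It was 2.96-fold lower in BN1, 2.08-fold in MA9 and 2.01-fold in ME. Prc1, which crosslinks the midzone, stood at 142, 144 and 134 CPM in the WT libraries, 51.6, 51.9 and 46.4 in BN1, 84.2, 86.3 and 84.2 in MA9 and 73.9, 72.3 and 90.02 in ME, with changes of -1.49 ± 0.07, -0.72 ± 0.06 and -0.83 ± 0.06 in the same order. Both fell in every leukemia.

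Ect2, an exchange factor needed for cleavage at the end of mitosis, stood at 69.8, 64.3 and 60.2 CPM in the WT libraries, 32, 31.6 and 30.8 in BN1, 54, 60.1 and 51.3 in MA9 and 37.7, 41.4 and 52.8 in ME. ME replicate 3 lies within the MA9 range, and the other ME libraries lie below it. The fall in MA9 (-0.23 ± 0.09) was lost with upper-quartile scaling (adjusted p = 0.1) and without WT replicate 1 (0.12) or MA9 replicate 1 (0.072) or 3 (0.11). Anln, the scaffold of the contractile ring, stood at 99.8, 96.3 and 89.6 CPM in the WT libraries, 62.6, 61.8 and 59.4 in BN1, 86.8, 84 and 81 in MA9 and 93, 93.1 and 103 in ME. ME overlapped WT (0.02 ± 0.06, adjusted p = 0.8), and the fall in MA9 (-0.18 ± 0.06) was lost with upper-quartile scaling (adjusted p = 0.066). Kif20a, a motor that brings Aurora B to the midzone, fell in all 3 and was at 26.9 ± 1.35 CPM (SD, n = 3) for WT, 15.4 ± 1.4 for BN1, 19.8 ± 1.09 for MA9 and 19.96 ± 0.751 for ME. Exons of Cdc23 on the other strand cover 29.3% of its exon bases, so its level is uncertain unless counting used strand, which no source used here says. The same holds for Ccna2 (12.5%, Exosc9), Cdc25c (12.7%, Gm3550) and Prc1 (11.1%, Rccd1).

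The chromosome proteins Mki67 and Top2a fell in every leukemia. Mki67, the Ki-67 protein that coats mitotic chromosomes, stood at 1301, 1331 and 1235 CPM in the WT libraries, 570.3, 572 and 575 in BN1, 682, 694 and 659 in MA9 and 764, 816 and 797 in ME. BN1 was 2.25-fold below WT, MA9 1.9-fold and ME 1.63-fold. Top2a, the topoisomerase that untangles sister chromatids, stood at 684, 682 and 649 CPM in the WT libraries, 306, 307 and 293 in BN1, 581, 591 and 566 in MA9 and 468, 471 and 529 in ME. Its change was -1.15 ± 0.05 in BN1 beside -1.17 ± 0.04 for Mki67, and -0.21 ± 0.05 in MA9 beside -0.93 ± 0.04. Whether the genes differ in this was not tested. Scaled to exon length, Mki67 had the highest level of the members in WT (128 CPM per kb), BN1 (56.9) and ME (78.8), and Ccnb2 in MA9 (69.2). Cdc25c was lowest in all 4 groups, from 1.36 in BN1 to 4.69 in WT. The members' median level was 22.5 CPM per kb for WT, 8.87 for BN1, 14.3 for MA9 and 14.5 for ME.

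The leukemias were then compared with each other. Between BN1 and MA9, 33 of the 34 genes were lower in BN1 and none higher, where 34.9% of all genes were lower and 32.8% higher (67.7% in either direction); 33 members did not overlap, as for 70.1% of all genes. The median log2 fold change was -0.83, beside -0.01 over all genes. The largest differences were in Plk1 (-1.18 ± 0.06), Aurka (-1.16 ± 0.07) and Birc5 (-1.14 ± 0.06). Mki67 (-0.25 ± 0.04), Bub1 (-0.33 ± 0.06) and Kif20a (-0.36 ± 0.09) were the least different of those called.

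Between BN1 and ME, 33 were lower in BN1 and 1 higher, where 33.0% of all genes were lower and 31.8% higher (64.7% in either direction); no member overlapped, as for 66.9% of all genes. The median was -0.74, and -0.69 without ME replicate 3. Cdca8 (-1.15 ± 0.06), Ccna2 (-1.11 ± 0.06) and Cenpa (-1.08 ± 0.06) differed most. Without ME replicate 3 the largest were Cdca8 (-1.09), Birc5 (-1.04) and Cenpa (-1.03), and Ccna2 was -1.02. Of the 33 lower in BN1, Ccnb1 differed least (-0.33 ± 0.10, adjusted p = 0.011), and without ME replicate 3 its difference was -0.16 ± 0.06 (adjusted p = 0.038). That call was lost without BN1 replicate 3 (adjusted p = 0.052) and with only the compared groups fitted (0.087). Cdc20 was the exception in both comparisons: BN1 overlapped MA9 (0.09 ± 0.06, adjusted p = 0.16) and was higher than ME (0.28 ± 0.06, adjusted p = 0.0001; 0.32 ± 0.06 without ME replicate 3).

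**Figure D3:**
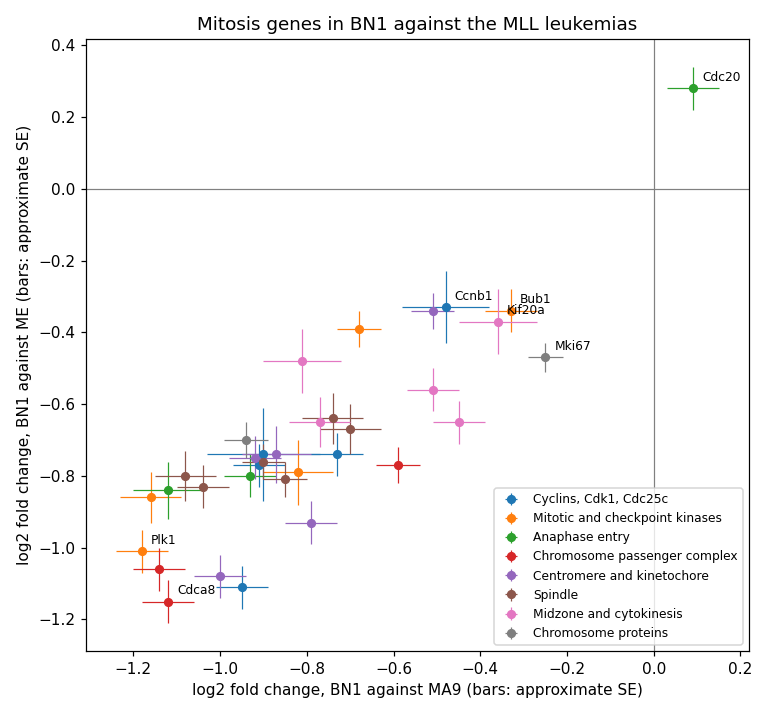
Log2 fold change of each gene in BN1 against ME (vertical) and against MA9 (horizontal), with bars for the approximate SE and colours for the roles. The axes share the BN1 libraries. Cdc20 is the member on the positive side of both axes, and Plk1 and Cdca8 lie at the far negative end.

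MA9 and ME were close to each other. Of the 34 genes, 13 were higher and 5 lower in MA9, where 20.2% of all genes were higher and 20.4% lower (40.6% in either direction), and 14 did not overlap (48.6% of all genes). The median was 0.12 and no member differed by 2-fold. Aurka (0.30 ± 0.07), Bub1b (0.29 ± 0.05), Hmmr (0.28 ± 0.06) and Top2a (0.24 ± 0.05) were higher in MA9 with no overlap, and Mki67 (-0.22 ± 0.04), Anln (-0.20 ± 0.06) and Aurkb (-0.18 ± 0.05) lower. Without ME replicate 3 the call of Aurkb was lost (-0.13, adjusted p = 0.057), as were those of Ccna2 (-0.07, adjusted p = 0.33) and Cenpe (-0.12, adjusted p = 0.11), and Prc1 became higher in MA9 (0.21, adjusted p = 0.0045). The count of higher members fell to 7 without MA9 replicate 1 or without ME replicate 1 and to 8 without ME replicate 2, and 11 of the 18 calls were lost under at least 1 of 20 alternatives without a fold minimum. Without ME replicate 3 it was 15 higher and 2 lower, with a median of 0.16, and without MA9 replicate 1 the lower count was 3. Ccnb1 was 0.14 ± 0.10 (adjusted p = 0.29) and became 0.32 ± 0.06 (0.00021) without ME replicate 3.

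ME replicate 3 held the highest ME value for 32 of the 34 genes (94.1%), beside 37.1% of tested genes with a count in ME. The median log2 ratio of this library to the mean of the other ME libraries was 0.166 over the members and -0.007 over all genes. The same library was highest for 46 of 58 other mitotic genes (79.3%) and 24 of 40 S phase genes (60.0%). In the other groups no library was highest for more than 20 members. Leaving out ME replicate 3 moved the 34 log2 fold changes of ME against WT by between -0.17 and 0.01, with a median of -0.05. Beside Ccnb1, given above, the falls that grew most were those of Ect2 (-0.56 to -0.71), Ube2c (-1.50 to -1.64), Cdc25c (-1.05 to -1.19), Nusap1 (-1.30 to -1.41), Prc1 (-0.83 to -0.93), Ccna2 (-0.85 to -0.93) and Nuf2 (-0.21 to -0.29). In ME against WT the call of Bub1 was lost and Kif2c gained one, and no other member's call changed. The coefficient of variation over the 3 libraries of a group had a median over members of 4.07% for WT, 5.19% for BN1, 3.61% for MA9 and 7.09% for ME, and it was widest for Ccnb1 in ME (20.3%).

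**Figure D4:**
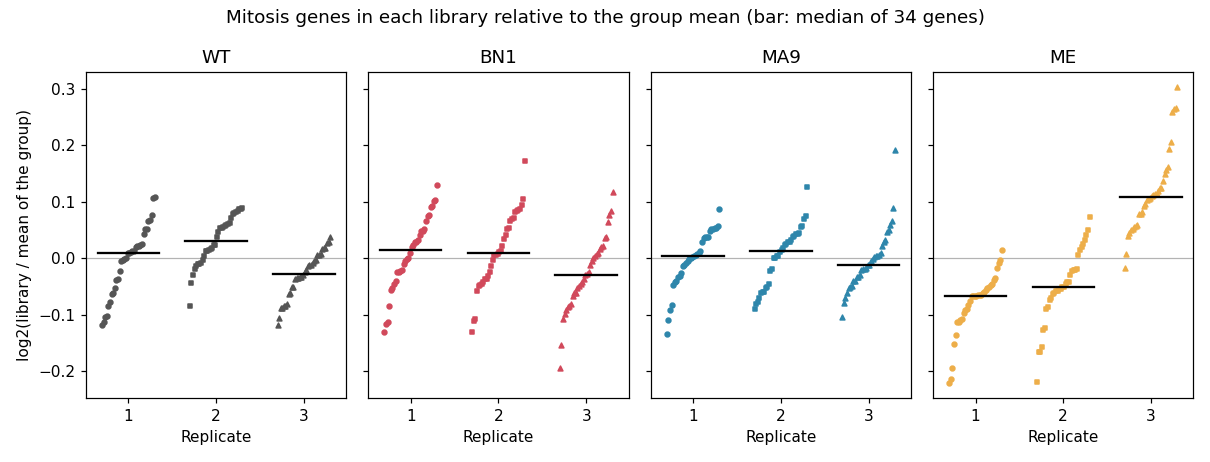
Level of each gene in a library as the log2 ratio to its group mean, 1 panel per group and 1 column per library, with a bar at the median over 34 genes. The points of ME replicate 3 lie above 0 for nearly all genes, and the medians of the other libraries lie closer to 0.

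Across the 12 libraries the median Pearson correlation of log2 CPM over the 561 pairs of members was 0.91, with a range from -0.35 to 1.0. These libraries fall into 4 groups, and with the group means removed the median was 0.38. Kif11, Prc1, Hmmr, Dlgap5, Cdk1 and Plk1 were most like the rest (median correlation 0.95 each with the other members). Cdc20 (0.43), Bub1 (0.60) and Bub1b (0.75) were least like it. Set against the promoter letters, the median log2 fold change in BN1 against WT was -1.22 over the 22 with a CHR and a CCAAT box, -1.0 over the 4 with a CHR alone, -1.46 over Nusap1 and Nuf2, and -1.24 over the 6 with no promoter entry.

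Beyond the members, 58 other spindle and kinetochore genes were counted. In BN1 against WT, 53 fell and 3 rose, with a median log2 fold change of -0.89, in MA9 32 fell and 7 rose (-0.26), and in ME 35 fell and 6 rose (-0.30). Among all genes tested, 40.8% were lower and 38.4% higher in BN1, 40.8% and 39.3% in MA9, and 40.2% and 39.0% in ME. In BN1, 53 were lower than in MA9 and 48 lower than in ME, and 2 were higher in each. The shares of all genes lower in BN1 were 34.9% and 33.0%, and those higher were 32.8% and 31.8%. Fam83d (-2.17 ± 0.14), Aspm (-1.86 ± 0.07), the organiser of spindle poles, and the kinesin Kif18b (-1.63 ± 0.06) had the largest falls in BN1. Zwilch (0.62 ± 0.07) and Cenpt (0.57 ± 0.08), both of the kinetochore, and Cenpo (0.31 ± 0.07) were the 3 that rose.

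Among 23 regulators of mitotic transcription, 15 fell and 4 rose in BN1 against WT, and 13 fell and 7 rose in each of MA9 and ME. Over all genes tested, 40.8% fell and 38.4% rose in BN1, 40.8% and 39.3% in MA9, and 40.2% and 39.0% in ME. Foxm1, the forkhead factor that switches these genes on in G2, stood at 106, 114 and 111 CPM in the WT libraries, 51.8, 43.2 and 49.3 in BN1, 66.5, 63.6 and 63.8 in MA9 and 86, 87.5 and 87.5 in ME. It fell in BN1 (-1.20 ± 0.06), MA9 (-0.77 ± 0.06) and ME (-0.34 ± 0.06), with the groups in the order WT, ME, MA9, BN1. Mybl2, which encodes B-Myb, stood at 76.2, 88.9 and 82.2 CPM in the WT libraries, 59.98, 63.6 and 65.5 in BN1, 130.2, 123 and 126 in MA9 and 152, 154 and 158 in ME: lower than WT in BN1 (-0.39 ± 0.06) but higher in MA9 (0.62 ± 0.05) and ME (0.91 ± 0.05). The MuvB subunit Lin9 fell in BN1 (-0.77 ± 0.09), MA9 (-0.40 ± 0.09) and ME (-0.52 ± 0.09).

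E2f1 rose in all 3 leukemias, with 43.3 ± 2.52 CPM (SD, n = 3) for WT, 58.6 ± 1.85 for BN1, 78 ± 0.777 for MA9 and 69.1 ± 1.12 for ME. The repressors E2f7 and E2f8 fell in BN1 (-2.33 ± 0.09 and -1.14 ± 0.05), and in MA9 and ME E2f8 was 0.06 ± 0.05 and 0.08 ± 0.05 (adjusted p = 0.26 and 0.096). Rb1 fell in each leukemia and was at 128 ± 9.73 CPM (SD, n = 3) for WT, 64.2 ± 4.26 for BN1, 59.9 ± 4.61 for MA9 and 52.2 ± 3.76 for ME, while its relative Rbl1 rose (0.29 ± 0.06 in BN1).

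Of 21 subunits, partners and inhibitors of the anaphase-promoting complex, 10 rose and 9 fell in BN1 against WT (median 0.08), 11 rose and 6 fell in MA9 (0.17), and 13 rose and 7 fell in ME (0.21). All genes tested split into 38.4% higher and 40.8% lower in BN1, 39.3% and 40.8% in MA9, and 39.0% and 40.2% in ME. In BN1 the largest falls were those of its late activator Fzr1 (-1.65 ± 0.06) and its inhibitor Fbxo5 (-1.48 ± 0.07), and Fzr1 also fell in MA9 (-1.18 ± 0.06) and ME (-1.46 ± 0.06). The checkpoint gene Mad1l1 rose in BN1, from 40.1, 45.2 and 44.9 CPM in the WT libraries to 161, 158 and 169.8 (1.91 ± 0.06), and less in MA9 (0.55 ± 0.06) and ME (0.41 ± 0.06), whereas its partner Mad2l1 fell in BN1 (-0.81 ± 0.10).

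Of 13 tested genes that brake or trigger Cdk1 or inhibit Cdk kinases, 5 rose and 8 fell in BN1, and 7 rose and 5 fell in each of MA9 and ME. The shares of all genes against WT were 38.4% higher and 40.8% lower in BN1, 39.3% and 40.8% in MA9, and 39.0% and 40.2% in ME. Among the 13, Cdkn2a had the highest log2 fold change against WT, at 4.97 in BN1, 6.71 in MA9 and 6.71 in ME. Wee1, which holds Cdk1 inactive, rose in BN1 (0.81 ± 0.06), MA9 (1.30 ± 0.06) and ME (0.44 ± 0.06), and Cdc25b, a phosphatase that frees it, fell in all 3, with 195 ± 6.08 CPM (SD, n = 3) for WT, 26.9 ± 0.552 for BN1, 30.6 ± 1.78 for MA9 and 18.4 ± 2.19 for ME. Cdkn1a, an inhibitor of Cdk kinases, rose in all 3, with 12 ± 0.359 CPM (SD, n = 3) for WT, 43.9 ± 1.69 for BN1, 19.3 ± 0.745 for MA9 and 30.9 ± 1.33 for ME. Cdkn2c, which inhibits the G1 kinases, stood at 102, 122 and 117 CPM in the WT libraries, 224, 224 and 246 in BN1, 23.5, 20.1 and 23.6 in MA9 and 34, 35.4 and 30.1 in ME. BN1 was the group with the highest level and the MLL leukemias had the lowest, with log2 differences of 3.37 ± 0.08 from MA9 and 2.80 ± 0.07 from ME.

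S phase genes were set beside the mitosis genes. A list of 40 had 35 members higher and 3 lower in MA9 than in WT (median log2 fold change 0.44), 30 higher and 4 lower in ME (0.29), and 8 higher and 25 lower in BN1 (-0.24). Of all genes, 39.3% were higher and 40.8% lower in MA9, 39.0% and 40.2% in ME, and 38.4% and 40.8% in BN1. In BN1, 33 were lower than in MA9 (-0.73) and 34 lower than in ME (-0.57), beside 34.9% and 33.0% of all genes. Mcm3, a subunit of the replicative helicase, was at 204 ± 9.6 CPM (SD, n = 3) for WT, 251 ± 2.04 for BN1, 446 ± 11.1 for MA9 and 335 ± 4.79 for ME. Rrm2, the regulated subunit of ribonucleotide reductase, fell in every leukemia (-1.88 ± 0.05 in BN1, -0.62 ± 0.05 in MA9 and -0.56 ± 0.05 in ME).

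The mean log2(CPM + 0.5) of the 34 mitosis genes minus that of the S phase genes was 0.582, 0.504 and 0.488 in the WT libraries, -0.458, -0.494 and -0.517 in BN1, -0.355, -0.363 and -0.383 in MA9, and -0.336, -0.328 and -0.223 in ME. Every WT library had mitosis genes above S phase genes on this scale and every leukemia library had them below. Between BN1 and WT the group means differed by -1.01, between MA9 and WT by -0.89 and between ME and WT by -0.82. The difference between BN1 and MA9 was -0.12, and its direction turned with summed CPM in place of mean logs (0.01). These values describe levels of lists of different genes and carry no test.

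**Figure D5:**
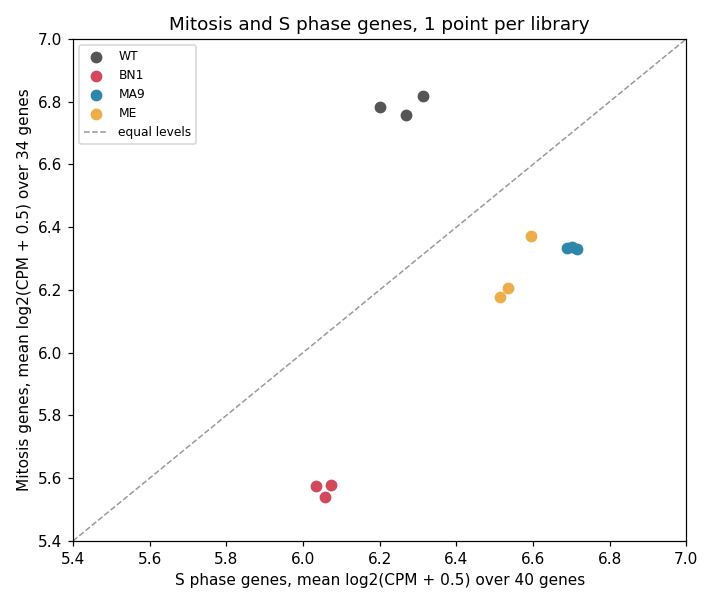
Mean log2(CPM + 0.5) of the 34 mitosis genes (vertical) against that of 40 S phase genes (horizontal), 1 point per library, with a dashed line where both are equal. The 3 WT points lie above the line and the 9 leukemia points below it, with BN1 lowest on both axes.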

How the data were processed

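The authors deposited raw counts per gene, in 1 table with 35976 symbols for 12 libraries. HISAT2, featureCounts, DESeq2 and mm10 are named per the submitters' processing notes, without a role. The sources used here do not give versions, the annotation, strand use or the treatment of multiply mapped reads. RNeasy columns and a stranded TruSeq kit for mRNA were used, per the labels' protocols. A total of 10859 genes had a count of 0 everywhere.

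Here, genes were filtered with filterByExpr, scaled with TMM (factors 0.928 to 1.051) and fitted in 1 robust quasi-likelihood model over all 12 libraries (edgeR 4.0.16, R 4.3.3; biological coefficient of variation 5.87%, 8 residual and 18.61 prior degrees of freedom). The threshold was an adjusted p of 0.05 (Benjamini-Hochberg) over all 15334 tested. SEs are the absolute log2 fold change over the square root of F. The fit was also run on simulated counts with few genes changed, unlike these data, so that run does not test this setting. The 34 members and the other lists, markers and motifs were chosen with earlier results of these data known. All members are named, and of each other list up to 3 called genes per direction and comparison with the largest change, no overlap of the groups and at least 5 CPM in the higher group, plus some regulators and paralogs fixed by name. From the 94 genes so selected, examples are printed. S phase levels use a pseudocount of 0.5 CPM. Lengths and exon overlaps come from the GENCODE M21 annotation, promoters from RefSeq, and similar transcripts from blast 2.17.0+ (at least 95% identity over 300 bases).

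Alternatives were RLE and upper-quartile scaling, DESeq2 1.42.0, limma-voom (limma 3.58.1), other filters, only the compared groups, a replicate block, a 1.5-fold minimum and each library left out. Labels give no batch. Same-numbered libraries did not deviate together (correlations -0.081 to 0.062 over 18 pairs), so numbers were not taken as pairs. No libraries of a group agreed within sampling noise (mean chi-square at least 2.005).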

Additional observations from a re-analysis of the deposited data

How the results depend on the processing

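Over 4284 values of single members under the alternatives, 4113 kept their side of the threshold, 164 lost the call and 7 gained one. None that was called in either setting turned direction. Some values called in neither did, such as Aurka in MA9 against WT (-0.06, and up to 0.02 among the alternatives). With a test against a 1.5-fold minimum, lower members numbered 10 in MA9 and 12 in ME against WT and 20 in BN1 against ME, higher members numbered 0 in MA9 and in ME against WT and 0 in BN1 against ME, and MA9 against ME had 0 in either direction. Of all 15334 genes, 4181 were lower and 3151 higher in MA9 against WT with this minimum, and 4140 and 2975 in ME against WT. In BN1 against ME 1909 were lower and 1989 higher, and in MA9 against ME 810 and 1021. Higher members in MA9 against WT numbered 1 with RLE size factors, with DESeq2, with at least 1 CPM in all libraries of a group, and with the replicate block. That is the only count the block moved by over 1.5 times, and the numbers do not pair the libraries. Higher members in ME against WT numbered 0 with RLE size factors, DESeq2 and the 1 CPM filter. Lower members in MA9 against ME numbered 3 with upper-quartile scaling. Leaving out 1 library gave 1 to 2 higher in MA9 and 0 to 1 in ME against WT, and 7 to 15 higher and 2 to 5 lower in MA9 against ME. With 2 libraries left in a group, the spread is shared with the others. With summed CPM, mitosis relative to S phase differed by -1.0 between MA9 and WT, 0.01 between BN1 and MA9 and -0.14 between MA9 and ME, where the difference of mean levels was -0.07. Leaving out libraries from this measure, added after seeing the data, gave -1.03 to -0.99 for BN1, -0.91 to -0.86 for MA9 and -0.86 to -0.79 for ME against WT, -0.14 to -0.11 for BN1 against MA9, -0.21 to -0.16 for BN1 against ME and -0.09 to -0.03 for MA9 against ME, where -0.03 was without ME replicate 3. The 28 promoters gave 89.3% with a CHR, 78.6% with a CCAAT box and 14.3% with E2F letters in a window from 150 bases before the start. Where alternatives moved a value, the cause was not tested. The smallest count of a member in a library was 153, and precision rests on 3 libraries a group.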

Other observations

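Of 19 cohesin and condensin genes, which hold and fold sister chromatids, 12 fell and 5 rose in BN1 against WT (median log2 fold change -0.23), 9 fell and 7 rose in MA9 (-0.12), and 9 fell and 6 rose in ME (-0.11). Of all genes tested, 40.8% were lower and 38.4% higher in BN1, 40.8% and 39.3% in MA9, and 40.2% and 39.0% in ME. Sgol1, the protector of centromeric cohesin, fell most in BN1 (-1.46 ± 0.09), with the condensin subunits Ncaph (-1.13 ± 0.05) and Ncapd2 (-1.0 ± 0.05) and the cohesin subunit Rad21 (-0.96 ± 0.04). Smc4, the core ATPase of condensin, rose in BN1, from 365, 325 and 334 CPM in the WT libraries to 547, 542 and 492 (0.63 ± 0.05), and less in MA9 (0.23 ± 0.05) and ME (0.25 ± 0.05).

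Of 16 paralogs of the members, 10 passed the filter, and 8 of these fell and 1 rose in BN1 against WT. In MA9 5 fell and 1 rose, and in ME 5 fell and 0 rose. The shares of all genes were 40.8% lower and 38.4% higher in BN1, 40.8% and 39.3% in MA9, and 40.2% and 39.0% in ME. The lowest log2 fold change was that of Plk3 in BN1 (-2.26) and of Plk2 in MA9 (-3.95) and ME (-4.14). Top2b, the topoisomerase that non-dividing cells also use, was at 218 ± 8.51 CPM (SD, n = 3) in WT and 162 ± 5.49 in BN1 (-0.42 ± 0.05), and its log2 fold change was -0.04 ± 0.05 in MA9 and -0.08 ± 0.05 in ME (adjusted p = 0.45 and 0.15). Cenpb, which binds centromeric repeats, rose in BN1, from 96.5, 108 and 111 CPM in the WT libraries to 286, 289.7 and 330.4 (1.52 ± 0.06). The germ-line cyclin Ccna1 and the germ-line kinase Aurkc were at or near 0 in all libraries.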
